A study of Mus musculus with 10 samples.

Results

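The 35 genes described here encode receptor chains for interleukins, interferons and ligands of the tumour necrosis factor (TNF) family. They were chosen by name, and the open chromatin regions around them by position. Overlapping peaks of all 10 libraries (by 1 bp or more, chromosomes 1 to 19 and X) were joined into regions, and a region belonged to the set when its centre fell in a gene's span or up to 30 kb outside it. All 35 genes were found in the annotation, and 393 of the 114366 merged regions met the rule. A library detected a region when any of its own peaks touched it.

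Chromatin accessibility had been measured by ATAC-seq, which uses a transposase to insert sequencing adapters into open DNA, in sorted bone marrow progenitors of C57BL/6 mice, with 2 libraries in each of 5 groups. The wild-type (WT) groups, in order of development, were long-term hematopoietic stem cells (LT-HSC), sorted as lineage-negative, CD117 and Sca-1 positive cells with CD150 and without CD135 and CD48; lymphoid-primed multipotent progenitors (LMPP), sorted as lineage-negative cells with CD117, Sca-1 and CD135; monocyte-dendritic cell progenitors (MDP), which carry CD117 and CD115 and lack Sca-1 and the interleukin-7 receptor; and common dendritic cell progenitors (CDP), with intermediate CD117, with CD115 and CD135, and likewise without Sca-1 and that receptor. The IRF8KO MDP libraries came from cells sorted through the MDP gate and deficient in IRF8, an interferon regulatory factor that dendritic cell and monocyte development depends on, and were set against WT MDP. For LMPP, 1 label field says short-term stem cells while the titles say LMPP, and the titles were followed. The animals behind each library and their ages are not given in the sources used here, so the spread between the 2 libraries of a group may be partly technical. The allele behind IRF8KO is not given there either. In sorted bulk cells, a region open in fewer cells and one less open in each cell cannot be told apart.

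Cytokine receptors are built from chains that are often shared. A ligand-binding chain pairs with a signalling chain such as the common gamma chain (Il2rg), gp130 (Il6st) or the IL-1 receptor accessory protein (Il1rap), and most interleukin and interferon receptors signal through Janus kinases and STAT proteins, whereas IL-1, IL-18 and IL-33 receptors use the adaptor MyD88 and TNF receptors use TRAF proteins. In bone marrow these receptors let stem and progenitor cells respond to infection and inflammation, and dendritic cell precursors in particular respond to type I interferon and to IL-3. Accessible regions mark gene starts and candidate enhancers, and their presence says nothing of how much receptor a cell makes.

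Total tags per library ran from 4790046 to 10166833, and each library had its own peak list with positions and no tag counts. Libraries differed in peak number, from 31325 to 69598, and in the percent of tags within peaks, from 19.32 to 53.74. LT-HSC replicate 1 stood apart with the lowest of both values, so results against LT-HSC are also given without it or at equal list length. Regions near MDP marker genes (Csf1r, Cx3cr1, Irf8, Ly86 and Mpo, 70 regions) were detected 7 and 19 times in LT-HSC, 24 and 27 in LMPP, 44 and 44 in MDP and 59 and 56 in CDP. LMPP marker genes were Flt3, Dntt, Notch1, Satb1 and Il7r. Of their 80 regions, 46 and 48 were detected in LMPP, 45 and 43 in MDP and 52 and 50 in CDP. They did not set LMPP apart from MDP or CDP. CDP marker genes were Csf1r, Flt3, Siglech, Zbtb46, Xcr1 and Cd209a, with 85 regions. These numbered 44 and 48 in LMPP, 51 and 52 in MDP and 67 and 64 in CDP. Regions near mast cell and basophil genes (36) numbered 22 and 21 in MDP and 16 and 17 in CDP. Regions near erythroid genes (27) numbered 13 to 19 in every library.

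The starts of the receptor genes split into a large set that was open in every library and a small set that was not. RefSeq start positions were at hand for 29 of the 35 genes, and the starts of Il17ra, Il10ra, Il10rb, Il12rb1, Il2rb and Il27ra were not analysed here. A start is called detected or open here when any peak touched the merged region that holds it. In wide regions, up to 10648 bp at Il3ra, that peak may lie away from the start. For 17 of the 29 genes a start lay in a region detected in all 10 libraries. These were both type I interferon receptor chains (Ifnar1, Ifnar2), both interferon gamma receptor chains (Ifngr1, Ifngr2), the signalling and decoy IL-1 receptors (Il1r1, Il1r2), Il1rap and gp130. The others were the alpha chains for IL-3, IL-4, IL-6 and IL-15 (Il3ra, Il4ra, Il6ra, Il15ra), Il21r, Il12rb2, both TNF receptors (Tnfrsf1a, Tnfrsf1b) and the lymphotoxin beta receptor Ltbr. The starts of Il18rap, Lifr and Tnfrsf11a (the receptor RANK) were missed in LT-HSC replicate 1 alone, and that of Il2rg in WT MDP replicate 1 alone. The starts of Il9r and Il20rb were in no detected region, and that of Il1rl1, which encodes the IL-33 receptor ST2, was seen in LT-HSC replicate 2 alone. The remaining 5 genes had a start that was detected in some libraries and missed in several others. They are printed below with the starts of Il1rap and Ifngr1, which were open in all libraries, as the 250 bases before each start, 5′ to 3′ on the gene's strand, from RefSeq (GRCm38.p6), with every CG dinucleotide in capitals. Il18r1 has 3 annotated starts, of which the most upstream is shown.
Il1rap (chr16:26581455-26581704, plus strand): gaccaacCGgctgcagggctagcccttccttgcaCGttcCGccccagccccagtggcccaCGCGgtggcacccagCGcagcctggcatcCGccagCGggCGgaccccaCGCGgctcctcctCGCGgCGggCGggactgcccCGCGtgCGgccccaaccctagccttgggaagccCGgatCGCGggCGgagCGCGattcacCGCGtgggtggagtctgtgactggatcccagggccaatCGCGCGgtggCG
Ifngr1 (chr10:19591699-19591948, plus strand): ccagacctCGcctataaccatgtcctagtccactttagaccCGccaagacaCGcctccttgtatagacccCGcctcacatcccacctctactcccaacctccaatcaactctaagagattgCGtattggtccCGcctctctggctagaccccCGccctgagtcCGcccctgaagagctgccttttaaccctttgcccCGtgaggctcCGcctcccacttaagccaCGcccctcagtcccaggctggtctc
Il18r1 (chr1:40465302-40465551, plus strand): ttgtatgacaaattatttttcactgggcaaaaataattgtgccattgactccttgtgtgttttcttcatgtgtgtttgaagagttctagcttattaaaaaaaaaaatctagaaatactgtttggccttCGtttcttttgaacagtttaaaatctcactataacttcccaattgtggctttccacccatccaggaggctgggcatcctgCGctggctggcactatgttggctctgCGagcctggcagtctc
Il2ra (chr2:11642542-11642791, plus strand): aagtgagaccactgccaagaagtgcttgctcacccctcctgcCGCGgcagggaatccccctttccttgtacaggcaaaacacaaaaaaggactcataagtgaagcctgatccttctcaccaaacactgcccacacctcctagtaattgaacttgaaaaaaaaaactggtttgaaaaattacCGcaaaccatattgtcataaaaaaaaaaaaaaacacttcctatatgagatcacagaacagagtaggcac
Il5ra (chr6:106749038-106749287, minus strand): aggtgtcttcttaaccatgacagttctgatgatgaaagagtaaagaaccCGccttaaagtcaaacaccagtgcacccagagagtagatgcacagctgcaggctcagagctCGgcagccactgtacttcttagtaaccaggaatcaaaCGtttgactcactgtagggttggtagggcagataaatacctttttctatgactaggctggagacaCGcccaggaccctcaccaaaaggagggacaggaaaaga
Osmr (chr15:6874314-6874563, minus strand): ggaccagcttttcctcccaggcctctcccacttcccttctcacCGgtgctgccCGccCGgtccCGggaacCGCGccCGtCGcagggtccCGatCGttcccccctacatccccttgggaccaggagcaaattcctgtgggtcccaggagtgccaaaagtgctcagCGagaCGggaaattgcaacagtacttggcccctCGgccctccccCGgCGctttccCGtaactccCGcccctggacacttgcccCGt
Il13ra1 (chrX:36111858-36112107, plus strand): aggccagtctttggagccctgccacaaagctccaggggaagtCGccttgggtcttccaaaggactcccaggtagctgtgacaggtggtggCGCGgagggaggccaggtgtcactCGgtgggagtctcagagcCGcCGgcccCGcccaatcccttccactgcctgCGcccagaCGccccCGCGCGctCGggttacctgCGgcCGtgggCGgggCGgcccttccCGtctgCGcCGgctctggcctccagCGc

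**Figure D1:**
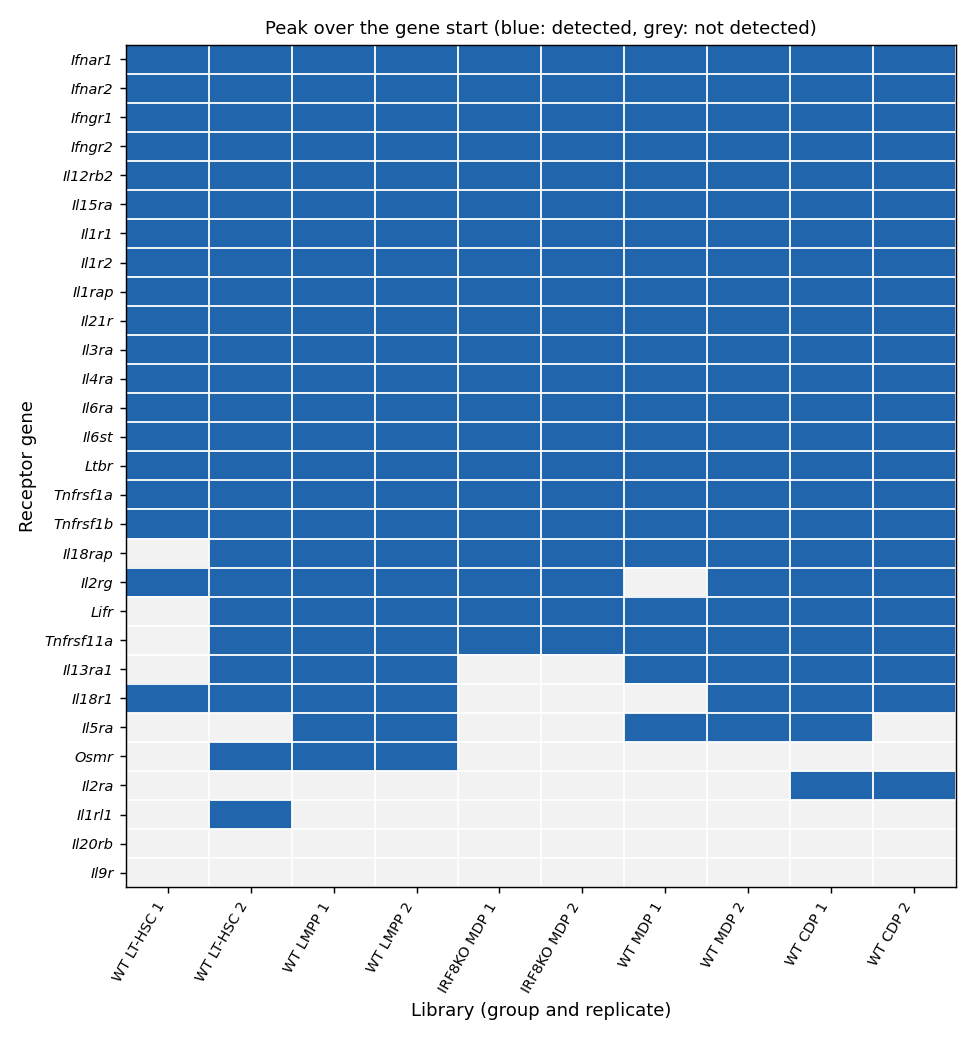
Detection of the merged region that holds the annotated start of 29 receptor genes (rows) in the 10 libraries (columns, 2 per group). Blue marks a peak anywhere in that region, and for genes with several starts the one found in most libraries is drawn. The 17 genes at the top are blue throughout, and Il13ra1, Il18r1 and Il5ra are grey in both IRF8KO MDP libraries, as are the 5 genes below them.

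The start of Il18r1, the ligand-binding chain of the IL-18 receptor, was absent from both IRF8KO MDP libraries and present in WT MDP replicate 2 alone. It was present in both libraries of LT-HSC, LMPP and CDP. List position, the percent of the way down a library's peak list, was used as a rough measure of strength, on the assumption that stronger peaks come first; a low value means near the top. Lists differ in length, so positions place a peak within its own library and no change is read from them. The Il18r1 start stood at 58.0% and 58.2% in LT-HSC, 76.7% and 41.8% in LMPP, 90.3% in WT MDP replicate 2 and 96.5% and 70.8% in CDP. Since WT MDP replicate 1 lacked it too, it was not called lost.

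The start of Il2ra, which encodes CD25, the high-affinity chain of the IL-2 receptor, was detected in both CDP libraries, at 81.8% and 78.3%, and in no other library. The start of Il5ra, the IL-5 receptor alpha chain, was absent from LT-HSC. It stood at 92.4% and 52.6% in LMPP, 97.4% and 86.8% in WT MDP and 97.6% in CDP replicate 1, and was absent from both IRF8KO MDP libraries and CDP replicate 2. Oncostatin M receptor Osmr had the reverse order: its start was found in LT-HSC replicate 2 (40.0%) and both LMPP libraries (49.1% and 48.3%) and nowhere later. The start of Il13ra1, the chain that pairs with the IL-4 receptor alpha chain to bind IL-13, was absent from both IRF8KO MDP libraries and from LT-HSC replicate 1, and at 99.4% and 90.1% in WT MDP it lay at the end of those lists. In CDP it stood at 57.5% and 50.1%.

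The sequences differ in base composition. The 250 bases before the Il1rap start hold 30 CG dinucleotides and those before the Ifngr1 start 11, against 3 for Il18r1, 3 for Il2ra, 4 for Il5ra, 18 for Osmr and 21 for Il13ra1. Over the 19 starts detected in all libraries the median was 12 (range 2 to 30) with 60.4% G+C. Over the other 16 it was 4 (range 0 to 43) with 50.6% G+C. Over all 32817 windows of the promoter table it was 6. The high values in the second set belong to Lifr (43) and Tnfrsf11a (31), missed in LT-HSC replicate 1 alone, and to Il13ra1 and Osmr.

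Short motifs were searched on both strands of these windows as a description. The interferon response-like GAAANNGAA was in 2 of the 35 starts (those of Il15ra and Tnfrsf1b), against 7.12% of all windows, and the composite ETS and IRF-like GGAANNGAA was in 1 (Il6st), against 6.99%. The ETS-like GAGGAAGT was in 1 (Il18rap), against 2.44%, the RUNX-like TGTGGT in 4, against 14.0%, the GATA-like AGATAA in 6, against 9.99%, and the C/EBP-like TTGCNNAA in 4, against 9.57%. None of the 7 printed windows held the first or second of these motifs. The Il5ra window held AGATAA on the gene's strand, 74 bases before the start.

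Away from the starts, few receptor regions were found in every library. Of the 393 regions, 28 held the start of a receptor gene and 16 the start of another gene, and 18 and 10 of these were found in all 10 libraries. Of the 349 regions without a gene start, 54 (15.5%) were. Over the whole genome, 69.7% of regions with a gene start and 10.6% of those without were found in all libraries. The replicates of at least 1 group disagreed on 203 of the 393 regions (51.7%, against 55.1% of all regions). Regions per gene ranged from 2 at Osmr to 23 at Tnfrsf1b (median 11), and their median width was 845 bp. Of the 393 regions, 97 lay nearest to a protein-coding gene outside the list and 44 lay in the window of more than 1 receptor gene, so a region is named here for the receptor gene nearest to it and not as its known enhancer. Regions nearest to another gene were most of those at Il27ra (10 of 12), Tnfrsf1a (11 of 16) and Il12rb1 (7 of 11). The same held at Il2rg (4 of 6), Ltbr (3 of 5) and Il2rb (4 of 7). Whether a region lies in an exon or an intron was not analysed here.

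**Figure D2:**
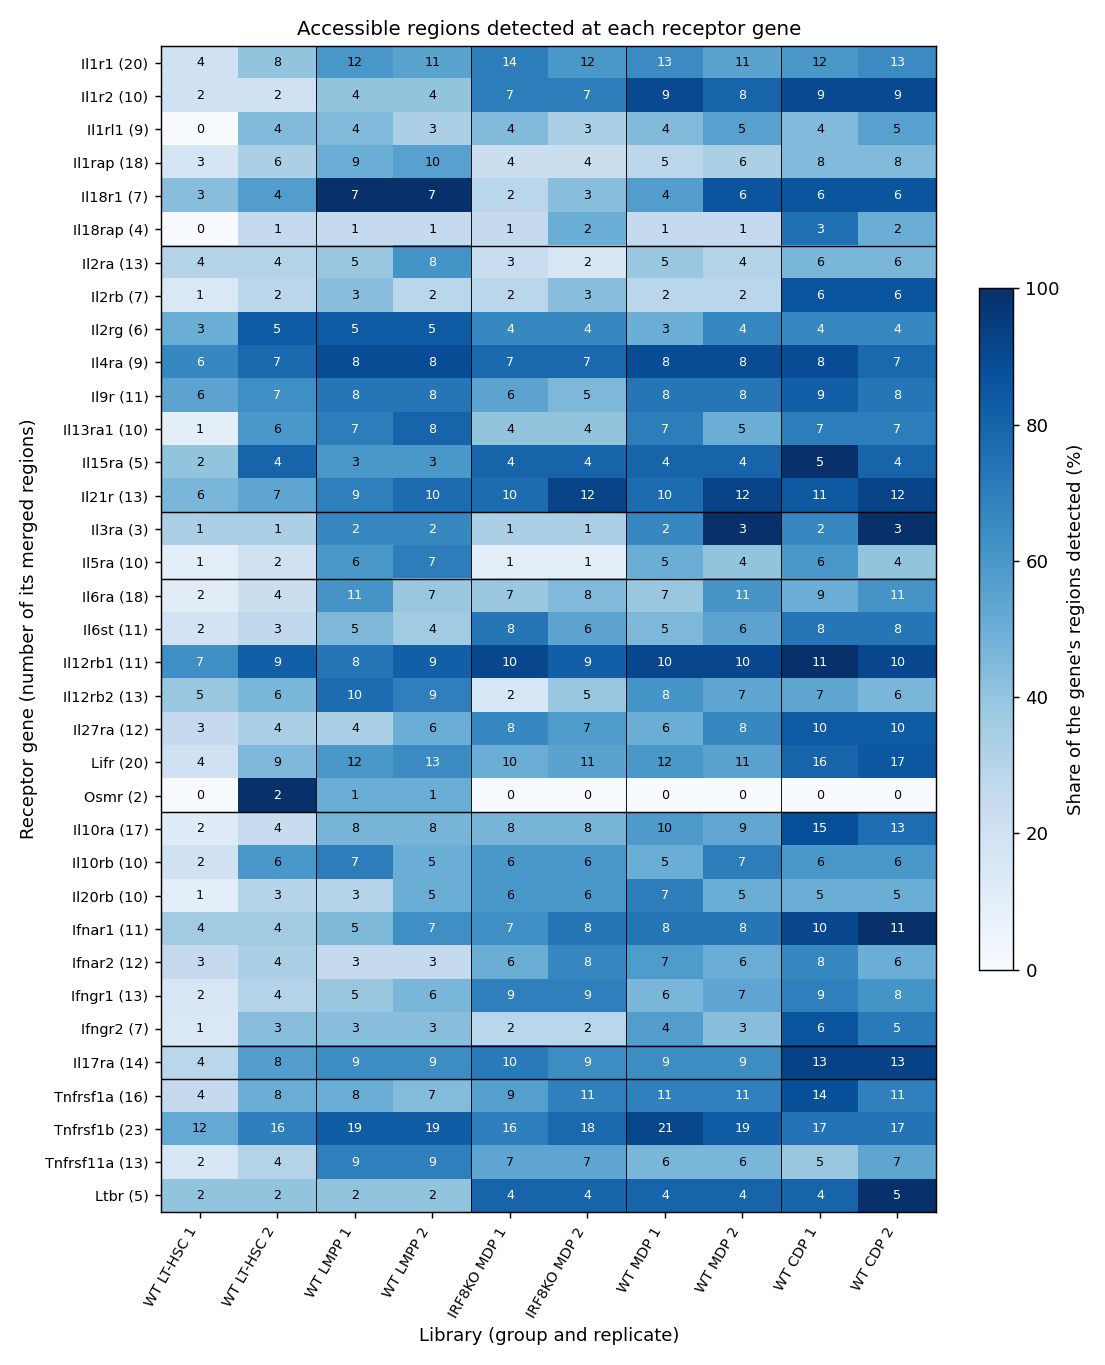
Number of regions detected at each receptor gene (rows, with the gene's total in brackets, grouped by receptor family) in each library (columns); shading gives the share of the gene's regions in percent. LT-HSC columns hold 105 and 173 regions in all, and CDP columns hold 279 and 273.

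Detected receptor regions numbered 105 and 173 in LT-HSC (26.7% and 44.0% of the 393), 225 and 229 in LMPP (57.3% and 58.3%), 236 and 238 in MDP (60.1% and 60.6%) and 279 and 273 in CDP (71.0% and 69.5%). Over all merged regions the shares were 26.4% and 44.3% in LT-HSC, 53.8% and 54.6% in LMPP, 52.4% and 54.2% in MDP and 59.7% and 55.9% in CDP. IRF8KO MDP had 209 and 216 receptor regions (53.2% and 55%), against 236 and 238 in WT MDP, and 42.5% and 45.8% of all regions. In each of the 5 comparisons below the groups did not overlap in the number of receptor regions, whereas MDP and LMPP overlapped in the share of all regions. The exact two-sided permutation test gave p = 0.33, the smallest that 2 libraries against 2 allow. A region was called gained when both libraries of the group named first and neither of the other detected it, and lost when it was the other way round. Shares are of the regions detected in at least 1 of the 4 libraries. No region was tested by itself. Leaving out 1 library removes a condition from each call, so the counts given below without a library can only stay or rise. Consecutive comparisons share libraries, and WT MDP stands in 3 of them.

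**Figure D3:**
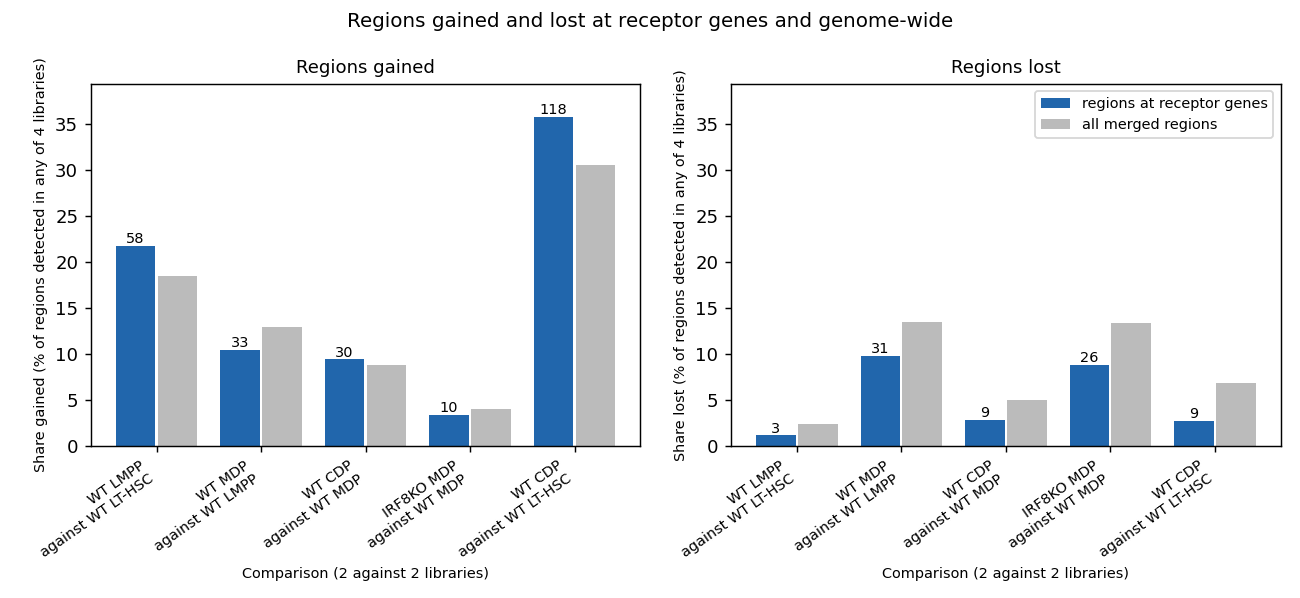
Share of regions gained (left panel) and lost (right panel) in each comparison, in percent of the regions detected in any of the 4 libraries, for receptor genes (blue, with the number of regions above the bar) and for all merged regions (grey). Gained shares run from 3.38% in blue against 3.96% in grey to 35.8% against 30.5%. Lost shares are lower in blue than in grey in all 5, such as 2.73% against 6.85% in CDP against LT-HSC.

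In LMPP against LT-HSC, 58 of 267 receptor regions were gained (21.7%, against 18.5 percent of all regions) and 3 were lost (1.12%, against 2.37 percent of all regions). Gains lay at 27 of the 35 genes. The IL-1 and IL-18 receptors gained 14 of 44 regions, TNF receptors 12 of 43, and Il3ra with Il5ra 5 of 9. Gains were fewer in share at the common gamma chain receptors and their partners (9 of 57), the gp130 and IL-12 type receptors (9 of 60) and the class II receptors for IL-10 and interferons (8 of 45). The gained region nearest the top of the lists lay 29.3 kb before the start of Il1rap (chr16:26551777-26552988, nearest gene Tmem207), at 11.3% and 12.7% in LMPP and absent from all other libraries. Next came a region 26.5 kb outside Il10rb, a chain shared by the IL-10 receptor and its relatives (chr16:91451546-91453191), at 23.3% and 19.3% in LMPP and detected in every later library. The third lay within Il12rb2 (chr6:67347903-67348659), at 31.5% and 22.1% in LMPP and nowhere else. Of the 58, 35 were also in both MDP libraries (60.3%, against 47.6% of all regions gained) and 36 in both CDP libraries (62.1%, against 50.9%).

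The 3 regions lost in LMPP lay near Il12rb1 (chr8:70843156-70845014, nearest gene Kcnn1), near Ltbr (chr6:125330627-125331644, nearest gene Scnn1a) and within Tnfrsf11a (chr1:105843296-105843902). Those near Il12rb1 and Ltbr were detected again in both MDP and both CDP libraries. The Tnfrsf11a region was the only receptor region found in both LT-HSC libraries and no other (0.254%, against 1.3% of all regions). These counts changed with list length, whose part in them was not tested. With every list cut to the 31325 peaks of the shortest, 22 regions were gained and 8 lost, of which 6 and 2 were among the 58 and 3; over all regions it was 4941 and 3970. Without LT-HSC replicate 2 the gains numbered 106, and without replicate 1 the losses numbered 17.

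In MDP against LMPP, gains and losses were nearly balanced. Of 318 receptor regions, 33 were gained (10.4%, against 12.9 percent of all regions) and 31 lost (9.75%, against 13.4 percent of all regions). By family the balance differed: the class II receptors gained 10 and lost 1 of 61, whereas the common gamma chain receptors gained 3 and lost 7 of 62, the gp130 and IL-12 type receptors gained 5 and lost 9 of 71, and Il3ra with Il5ra gained 0 and lost 3 of 13. IL-1 and IL-18 receptors had 7 gained and 5 lost of 52, and TNF receptors 7 and 5 of 49. Inside gene spans (181 regions), 9 were gained and 22 lost, against 24 gained and 9 lost outside them (212 regions). The same split was not made over all regions, so it is not known to be particular to receptor genes. No test was made of these differences. Leaving out WT MDP replicate 1 or 2 gave 51 or 50 gained regions, over 1.5 times the 33. Neutrophil marker regions (Elane, Ctsg, Csf3r, Ltf and Mmp8, 56 in all) numbered 40 and 41 in MDP, against 26 and 25 in LMPP, and their part in these counts was not tested.

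The leading gain in MDP lay within Il1r1, the signalling receptor for IL-1 (chr1:40294155-40295745). It stood at 13.1% and 15.6% in MDP and was absent from LMPP and LT-HSC. A region 16.8 kb outside Ifnar1 (chr16:91526686-91528013) stood at 21.7% and 23.3% in MDP, absent from LMPP and at 87.8% in LT-HSC replicate 2. The third, 11 kb before the start of Tnfrsf1b and nearest to Tnfrsf8 (chr4:145257237-145258579), stood at 24.6% and 23.0% in MDP and was absent from LMPP and LT-HSC. All 3 were present in both CDP and both IRF8KO MDP libraries. Of the 33 gains, 28 were in both CDP libraries (84.8%, against 73.0% of all regions gained) and 20 in both IRF8KO MDP libraries (60.6%, against 40.9%).

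The leading losses in MDP were strong LMPP peaks: the Il1rap region given above, a region within Tnfrsf1b (chr4:145221217-145222758) and a region within Il12rb2 (chr6:67337379-67338757). The Tnfrsf1b region was absent from MDP, at 14.6% and 13.3% in LMPP and at 41.0% and 27.3% in LT-HSC. The Il12rb2 region was absent from MDP and at 10.4% and 17.9% in LMPP. None of the 3 was detected in CDP. Of the 31 losses, 27 were in neither CDP library (87.1%, against 84.1% of all regions lost).

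In CDP against MDP, 30 of 320 receptor regions were gained (9.38%, against 8.8 percent of all regions) and 9 were lost (2.81%, against 4.94 percent of all regions). Il17ra, the IL-17 receptor chain A, gained 5 of its 14 tested regions and lost 1, the most gains of any gene in this step, and Il2rb (CD122, shared by the IL-2 and IL-15 receptors) gained 4. The gp130 and IL-12 type receptors gained 9 of 71, the class II receptors 7 of 65, and the 4 TNF receptor genes gained 0 and lost 3 of 48. Of the 30, 26 were in neither IRF8KO MDP library (86.7%, against 89.9% of all regions gained) and 0 were in both (2.96% of all). CDP libraries had 10166833 and 7985428 tags, against 5394861 and 5328234 in MDP, and T and NK cell marker regions (31) numbered 26 and 25, against 19 and 19; their part in these counts was not tested. At equal list length 26 were gained and 9 lost, and over all regions 5966 and 4977. Leaving out WT MDP replicate 1 or 2 gave 15 or 14 losses.

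The leading gains in CDP were found in CDP alone. They lay 24.1 kb outside Ifngr2 and nearest to Tmem50b (chr16:91587676-91588483, at 23.0% and 20.0%), 4.35 kb outside Il2rb (chr15:78515564-78516379, at 39.6% and 45.5%) and within Lifr, the receptor for leukemia inhibitory factor (chr15:7158765-7159405, at 47.4% and 42.6%). The leading losses were weaker peaks. A region 14.9 kb before Tnfrsf1b (chr4:145261359-145262119) was absent from CDP and at 69.5% and 63.9% in MDP. A region 26.6 kb before Il1r2 (chr1:40059062-40059973) was absent from CDP and at 68.7% and 72.2% in MDP. A region within Il12rb2 (chr6:67318390-67318987) was absent from CDP and at 86.1% and 70.1% in MDP.

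Across the whole path, CDP against LT-HSC, 118 of 330 receptor regions were gained (35.8%, against 30.5 percent of all regions) and 9 lost (2.73%, against 6.85 percent of all regions), with gains at 33 of 35 genes. The genes without a gain were Il2rg and Osmr. Il10ra, the IL-10 receptor alpha chain, gained the most, with 9, followed by Il1r2, Il6ra and Lifr with 7 each. The leading gain, 15.9 kb before the start of Tnfrsf1a and nearest to Scnn1a (chr6:125332671-125334973), was absent from LT-HSC, at 92.4% and 49.2% in LMPP, 10.0% and 6.35% in MDP and 4.40% and 4.81% in CDP. It stood at 17.4% and 12.4% in IRF8KO MDP. The leading loss lay 16.3 kb outside Il10rb (chr16:91441285-91443011), absent from CDP and MDP, at 84.4% in LMPP replicate 1 and at 17.5% and 14.2% in LT-HSC. With lists cut to 31325 peaks, 51 regions were gained and 19 lost, of which 35 and 7 were among the 118 and 9; over all regions it was 10410 and 8770. Without LT-HSC replicate 1 the losses numbered 30.

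In IRF8KO MDP against WT MDP, 10 of 296 receptor regions were gained (3.38%, against 3.96 percent of all regions) and 26 lost (8.78%, against 13.3 percent of all regions). Losses lay at 17 genes, gains at 7, and 14 genes had neither. Il5ra and Il3ra lost 3 of 9 regions, the IL-1 and IL-18 receptors lost 6 and gained 2 of 47, TNF receptors lost 5 and gained 2 of 48, the common gamma chain receptors lost 4 and gained 0 of 54, the gp130 and IL-12 type receptors lost 4 and gained 2 of 63, and the class II receptors lost 4 and gained 4 of 64. Il17ra had 0 of either among 11. IRF8KO MDP libraries had fewer peaks, 50728 and 54277, against 62130 and 64515 in WT MDP, and 43.72 and 43.94 percent of tags in peaks, against 51.25 and 53.74. With all 4 lists cut to 50728 peaks the balance turned round, with 18 regions gained and 12 lost; over all regions it was 4979 gained and 6463 lost. The 12 were all among the 26, and 9 of the 10 gains were among the 18. Leaving out any of the 4 libraries gave 15 to 21 gains and 33 to 43 losses: 21 gains without either IRF8KO library, 16 gains and 41 losses without WT MDP replicate 2, and 43 losses without WT MDP replicate 1. MDP marker regions (70) numbered 35 and 38 in IRF8KO MDP, against 44 and 44 in WT MDP, and neutrophil marker regions (56) numbered 37 and 37, against 40 and 41; their part in the losses was not tested.

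The region lost in IRF8KO MDP that stood highest in WT MDP lay within Il2ra, 19.9 kb after its start (chr2:11662031-11663272). It was absent from both IRF8KO libraries, at 26.7% and 27.0% in WT MDP, at 14.2% and 18.5% in CDP and at 89.8% in LMPP replicate 2. Next was a region 29.0 kb before the start of Ifnar1 (chr16:91455518-91456936), absent from IRF8KO MDP, at 29.6% and 25.3% in WT MDP, at 17.3% and 20.6% in CDP and at the bottom of the LMPP lists, at 95.5% and 95.1%. The third lay 1.52 kb before the Il5ra start printed above (chr6:106750207-106750913), absent from IRF8KO MDP, at 29.9% and 31.1% in WT MDP, 42.5% and 52.5% in CDP and 78.1% and 72.9% in LMPP. All 3 were still lost at equal list length, as were 9 others, at Il1r2, Tnfrsf11a, Ifnar2, Tnfrsf1b, Il1rl1, Il18r1, Il10ra, Il9r and a second one at Il2ra. The 14 that were not include the starts of Il5ra and Il13ra1, and stood at mean positions of 71.0% to 94.8% in WT MDP. Peaks low in the lists may stand in genomic order, so which of them pass the cut may depend on their place in the genome.

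The leading region gained in IRF8KO MDP lay 22.4 kb outside Il20rb, a chain of the IL-20 and IL-24 receptors (chr9:100434961-100435637), at 45% and 46.0% in IRF8KO MDP and absent from all other libraries. A pair lay within Ifngr1, the binding chain of the interferon gamma receptor, 2.73 and 6.29 kb after its start. The first (chr10:19594363-19594992) stood at 49.7% and 42.0% in IRF8KO MDP, absent from WT MDP and at 93.5% in LMPP replicate 1. The second (chr10:19597971-19598518) stood at 68.7% and 66.4% in IRF8KO MDP and in no other library. Of the 10 gains, 7 were in neither LMPP library (70.0%, against 77.0% of all regions gained) and 9 in neither CDP library (90.0%, against 84.7%).

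Some regions lost in IRF8KO MDP were already open in LMPP and others were not. Of the 26, 14 were in both LMPP libraries (53.8%, against 35% of all regions lost), 3 in 1 and 9 in neither; 21 were in both CDP libraries (80.8%, against 81.6%). Over all 10 libraries, 7 regions, at Il18r1, Tnfrsf11a, Il5ra, Il3ra, Lifr and Ifnar1 (2 of them), were in both libraries of LMPP, WT MDP and CDP and in no LT-HSC or IRF8KO library, and 8 regions, at Il1r2 (2 of them), Il1rl1, Tnfrsf1b, Il10ra, Il9r, Lifr and Ifnar2, were in both libraries of WT MDP and CDP alone. These are 1.78% and 2.04% of receptor regions, against 1.33% and 3.89% of all regions. Regions in both libraries of all groups but LT-HSC numbered 20 (5.09%, against 3.18%), and regions in both libraries of IRF8KO MDP, WT MDP and CDP and in no earlier library numbered 15 (3.82%, against 2.19%).

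The IL-1 and IL-18 receptor genes lie side by side on chromosome 1. At Il1r1 (chr1:40222480-40316201), with 20 regions, 4 were open throughout and 9 gains and 3 losses were summed over LMPP against LT-HSC, MDP against LMPP, CDP against MDP and IRF8KO MDP against WT MDP. Il1r1 was also the only gene with a region in both WT MDP libraries and no other (0.254% of receptor regions, against 0.361% of all regions). That region (chr1:40292218-40292862, at 68.7% and 90.3%) was a loss in IRF8KO MDP that was not called at equal list length. Il1r1 held 2 of the 7 regions found in both IRF8KO MDP libraries alone (1.78% of receptor regions, against 1.76% of all regions), at chr1:40228882-40229608 and chr1:40252342-40253070. Il1r2, the decoy receptor that binds IL-1 without signalling (chr1:40084692-40125230), had 2 and 2 of its 10 regions detected in LT-HSC, 4 and 4 in LMPP, 9 and 8 in MDP and 9 and 9 in CDP. It had 7 and 7 in IRF8KO MDP, against 9 and 8 in WT MDP. Its region 4.82 kb before the start (chr1:40080790-40081759) was absent from IRF8KO MDP, at 35.7% and 32.3% in WT MDP and 24.5% and 28.8% in CDP. Regions within the gene 1.61 and 5.40 kb after the start were likewise absent from LT-HSC and LMPP but present in both IRF8KO libraries. The second stood at 29.4% and 31.3% in IRF8KO MDP and at 44.1% and 56.4% in WT MDP. 

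Il18r1, singled out after its values were seen, had 3 and 4 of its 7 regions in LT-HSC, 7 and 7 in LMPP, 4 and 6 in MDP and 6 and 6 in CDP. It had 2 and 3 in IRF8KO MDP, against 4 and 6 in WT MDP. A region 9.98 kb after its start (chr1:40475574-40476404) was absent from IRF8KO MDP and at 52.8% and 66.0% in WT MDP. The region beside it, 7.77 kb after the start (chr1:40473295-40474260), stood at 52.4% and 89.1% in IRF8KO MDP and at 46.6% and 76.1% in WT MDP. A further region at 4.17 kb (chr1:40469792-40470564) was absent from IRF8KO MDP and at 68.7% and 80.3% in WT MDP, and was not called lost at equal list length. Il1rap had 3 and 6 of its 18 regions in LT-HSC, 9 and 10 in LMPP, 5 and 6 in MDP and 8 and 8 in CDP. Il1rl1 (9 regions) had 0 and 4 in LT-HSC and 3 to 5 in each other library, and Il18rap (4 regions) had 3 and 2 in CDP and 0 to 2 in each other library.

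**Figure D4:**
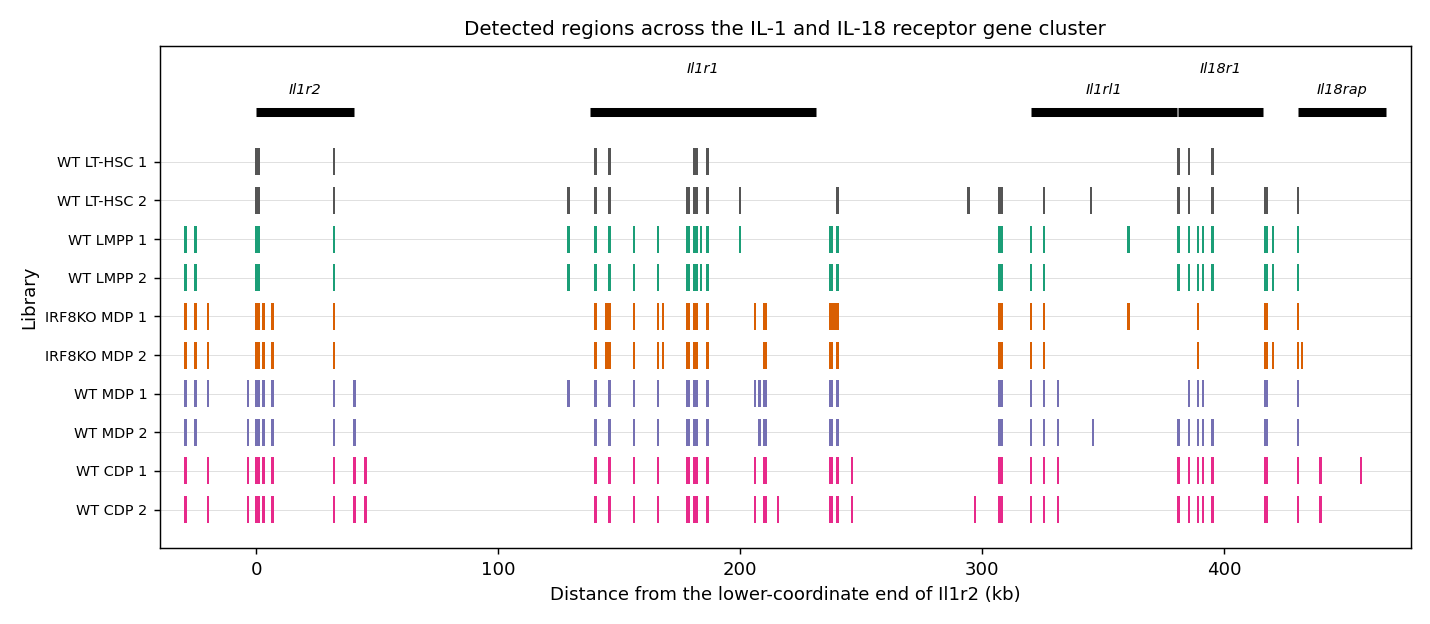
Regions detected in each library (rows, coloured by group) across Il1r2, Il1r1, Il1rl1, Il18r1 and Il18rap, by distance in kb from the lower-coordinate end of Il1r2; black bars are gene spans and marks are drawn at least 1 kb wide. Stretches over 30 kb from any of the genes are outside the rule and empty, and the marks under Il18r1 are sparse in the IRF8KO MDP rows.

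Among the receptors that use the common gamma chain or its partners, Il2ra changed its regions between stages more than its number of regions. It had 4 and 4 detected in LT-HSC, 5 and 8 in LMPP, 5 and 4 in MDP and 6 and 6 in CDP. A pair of neighbouring regions within the gene was confined, among these libraries, to the early stages. The first (chr2:11653025-11654215) stood at 42.3% and 24.5% in LT-HSC and 15% and 20.2% in LMPP, and the second (chr2:11654949-11655836) at 65.3% and 27.8% in LT-HSC and 25.9% and 22.9% in LMPP; neither was detected in any MDP or CDP library. They are the only receptor regions in both libraries of LT-HSC and LMPP and in no other (0.509%, against 2.01% of all regions). A region nearer the end of the gene than the one lost in IRF8KO MDP given above (chr2:11672000-11672653) was absent from IRF8KO MDP and at 79.9% and 72.5% in WT MDP, and was still lost at equal list length. Il2rb had 1 and 2 of its 7 regions in LT-HSC, 3 and 2 in LMPP, 2 and 2 in MDP and 6 and 6 in CDP. The common gamma chain Il2rg had 3 to 5 of 6 regions in every library, Il4ra 6 to 8 of 9 and Il21r 6 to 12 of 13. Il9r had 5 to 9 of 11, Il15ra 2 to 5 of 5 and Il13ra1 1 to 8 of 10. The last had 4 and 4 in IRF8KO MDP, against 7 and 5 in WT MDP.

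The alpha chains that pair with the common beta chain are those for IL-3 and IL-5. Il3ra, which encodes CD123, is covered whole by 1 region of 10648 bp (chr14:14344993-14355640) that stood within the first 1.06% of every list, so no change could be seen there. The region just beyond it (chr14:14355991-14356900) was absent from LT-HSC, at 88.9% and 82.8% in LMPP, 71.1% and 83.7% in WT MDP and 42.0% and 55.2% in CDP, and absent from both IRF8KO MDP libraries. It was not called lost at equal list length. Il5ra (chr6:106710375-106749037) had 10 regions, with 1 and 2 detected in LT-HSC, 6 and 7 in LMPP, 5 and 4 in MDP and 6 and 4 in CDP. It had 1 and 1 in IRF8KO MDP, against 5 and 4 in WT MDP. The 1 region left in IRF8KO MDP (chr6:106768562-106770436) was open in every library. It lay 20.5 kb outside Il5ra and nearest to Trnt1. Inside the gene, 22.1 kb after the start (chr6:106725645-106728146), a region stood at 11.8% and 26.3% in LMPP and was absent from MDP and CDP, and in LT-HSC it was at 96.8% in replicate 2 alone.

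The gp130 and IL-12 type receptors included genes whose counts differed in course after LMPP. Il12rb2, the signalling chain of the IL-12 receptor (chr6:67285986-67376293), had 5 and 6 of 13 regions in LT-HSC, 10 and 9 in LMPP, 8 and 7 in MDP and 7 and 6 in CDP. It had 2 and 5 in IRF8KO MDP, against 8 and 7 in WT MDP. It gained 2 regions in LMPP, gained 1 and lost 3 in MDP against LMPP, and lost 1 in CDP against MDP. It lost 2 in IRF8KO MDP, and neither of these was called lost at equal list length. Lifr (chr15:7090610-7197489) had 4 and 9 of 20 regions in LT-HSC, 12 and 13 in LMPP, 12 and 11 in MDP and 16 and 17 in CDP. Its region 49.6 kb before the nearest annotated start (chr15:7079498-7080420) was absent from IRF8KO MDP, at 62.6% and 79.4% in WT MDP and at 20.4% and 24.2% in CDP, and was not called lost at equal list length. Il27ra, with 10 of its 12 regions nearest to another gene, had 10 and 10 in CDP, against 6 and 8 in MDP. The gp130 gene had 8 and 8 of 11 in CDP, against 5 and 6 in MDP. Il6ra ranged from 2 to 11 of 18, with replicates apart by up to 4 in LMPP and in MDP. Il12rb1 had 7 to 11 of 11 regions in every library, and Osmr 2 regions, neither in any library after LMPP.

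The interferon and IL-10 receptor genes Ifnar2, Il10rb, Ifnar1 and Ifngr2 lie within one stretch of chromosome 16. Ifnar1 (chr16:91485032-91510523) had 4 and 4 of 11 regions in LT-HSC, 5 and 7 in LMPP, 8 and 8 in MDP and 10 and 11 in CDP. It had 7 and 8 in IRF8KO MDP, against 8 and 8 in WT MDP. Besides the region at 91455518, a region 4.43 kb before the start (chr16:91480443-91481134) was absent from IRF8KO MDP and at 79.1% and 89.5% in WT MDP, while 1 was gained. The first of these was still lost at equal list length and the second was not. Ifnar2, the other type I interferon receptor chain, had 3 and 4 of 12 in LT-HSC, 3 and 3 in LMPP, 7 and 6 in MDP and 8 and 6 in CDP. A region 25.4 kb before its start (chr16:91346515-91348278) was absent from IRF8KO MDP, at 58.2% and 45% in WT MDP and at 28.6% and 40.5% in CDP. One within Ifnar2 (chr16:91397974-91399434) likewise first appeared in MDP but was present in IRF8KO MDP, at 48.6% and 43.8%. In WT MDP it stood at 30.9% and 39.2%.

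Ifngr1 had more regions in IRF8KO MDP, 9 and 9 of 13, against 6 and 7 in WT MDP, and Ifngr2 had 2 and 2 of 7, against 4 and 3. Il10ra (chr9:45253837-45269149) had 2 and 4 of 17 regions in LT-HSC, 8 and 8 in LMPP, 10 and 9 in MDP and 15 and 13 in CDP. IRF8KO MDP had 8 and 8. Its 3 gains in CDP included 1 region found in CDP alone, and its region at chr9:45235708-45236363, nearest to BC049352, was absent from IRF8KO MDP and at 59.6% and 64.6% in WT MDP. Il10rb had 2 to 7 of 10 regions and Il20rb 1 to 7 of 10 in each library.

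**Figure D5:**
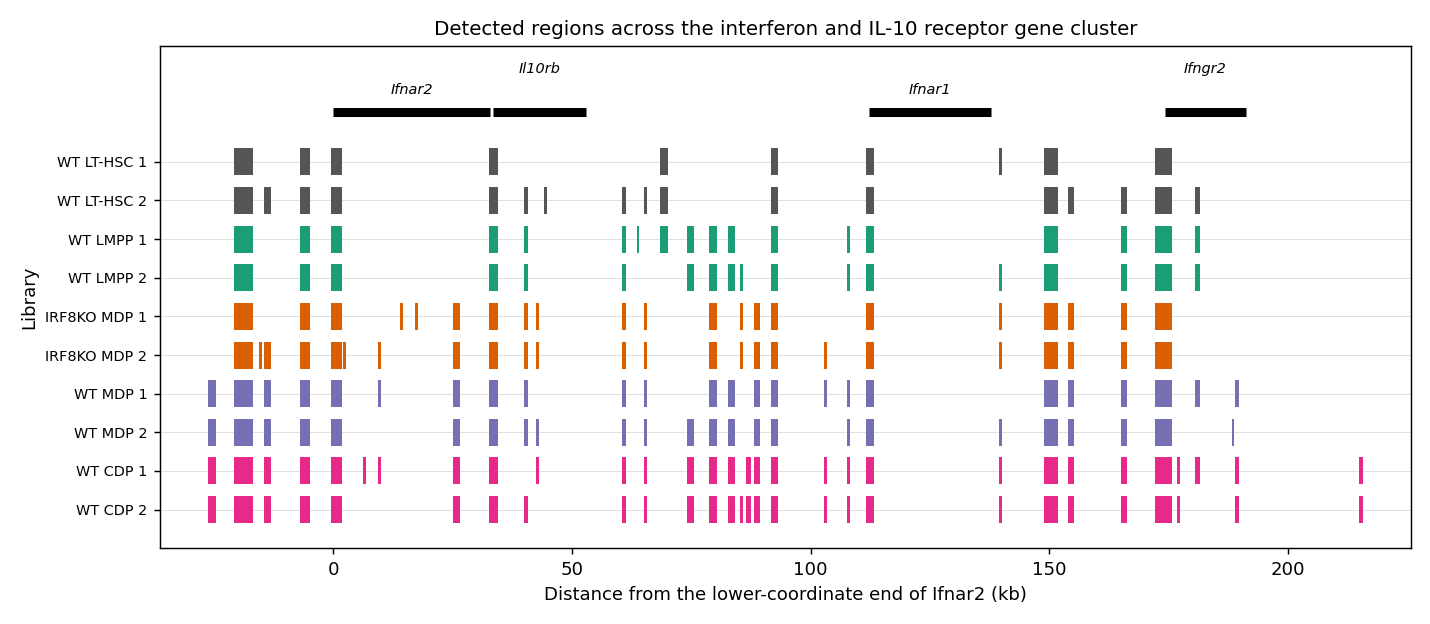
Regions detected in each library (rows, coloured by group) across Ifnar2, Il10rb, Ifnar1 and Ifngr2, by distance in kb from the lower-coordinate end of Ifnar2, to scale; black bars are gene spans. The starts of Ifnar2, Ifnar1 and Ifngr2 are open in every row, and that of Il10rb was not analysed. The region 29.0 kb before the Ifnar1 start is missing from both LT-HSC and both IRF8KO MDP rows.

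Il17ra (chr6:120463181-120483731) had 4 and 8 of 14 regions in LT-HSC, 9 and 9 in LMPP, 9 and 9 in MDP and 13 and 13 in CDP, with 10 and 9 in IRF8KO MDP. Of its 5 gains in CDP, 3 were found in CDP alone (chr6:120458278-120458821, chr6:120490270-120491180 and chr6:120503073-120503629), the last at 44.6% and 62.5%. The middle one was nearest to Tmem121b and the last to Hdhd5.

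Among TNF receptors, Tnfrsf1b, the p75 receptor (chr4:145212368-145246870), had the most regions and the most changes, with 6 gains and 8 losses summed over the 4 comparisons named above for Il1r1, beside 10 regions open in every library. It had 12 and 16 of 23 regions in LT-HSC, 19 and 19 in LMPP, 21 and 19 in MDP and 17 and 17 in CDP. It had 16 and 18 in IRF8KO MDP, against 21 and 19 in WT MDP. A region 6.00 kb before the start (chr4:145252380-145253363) was absent from IRF8KO MDP, at 53.2% and 63.9% in WT MDP and 35.4% and 33.2% in CDP. The region 11 kb before the start was in both groups, at 19.2% and 15.4% in IRF8KO MDP and at 24.6% and 23.0% in WT MDP. Tnfrsf11a, the receptor RANK (chr1:105780673-105849444), gained 6 regions in LMPP and lost 3 in MDP, with 2 and 4 of 13 in LT-HSC, 9 and 9 in LMPP, 6 and 6 in MDP and 5 and 7 in CDP. Its region 20.7 kb after the start (chr1:105800988-105801801) was absent from IRF8KO MDP and at 40.6% and 40.5% in WT MDP. Another, 2.33 kb before the start (chr1:105778090-105778705), was at 78.8% and 79.0% in IRF8KO MDP, absent from WT MDP and at 76.8% and 84.1% in LMPP. Tnfrsf1a, the p55 receptor, had 4 and 8 of 16 regions in LT-HSC and 14 and 11 in CDP, and Ltbr 2 and 2 of 5 in LT-HSC and LMPP and 4 or 5 in every later library.

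Signalling genes of these pathways, 23 in all (Janus kinases and Tyk2, SOCS proteins with Cish, Ptpn6, Myd88, IRAK proteins with Tollip, TRAF proteins, Tradd, Ripk1 and Map3k7), had 283 regions under the same rule. In LMPP against LT-HSC, 40 of 211 were gained and 3 lost, where 18.5 percent of all regions were gained and 2.37 percent lost. In MDP against LMPP, 27 of 242 were gained and 20 lost, where 12.9 percent of all regions were gained and 13.4 percent lost. In CDP against MDP, 13 of 238 (5.46%) were gained and 6 lost, against 9.38% gained among receptor regions. Of all regions, 8.8 percent were gained and 4.94 percent lost in that step. In IRF8KO MDP against WT MDP, 6 of 229 (2.62%) were gained and 22 lost (9.61%). The shares gained and lost were 3.38% and 8.78% of receptor regions and 3.96% and 13.3% of all regions. Socs3, an inhibitor of gp130 signalling, gained 4 regions in LMPP and, in MDP, gained 4 and lost 1. Jak1, the kinase shared by gp130, interferon and gamma chain receptors, gained 6 in LMPP and, in MDP, gained 1 and lost 4.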

How the data were processed

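Each of the 10 ATAC-seq libraries came with its own peak list. Bowtie 1.1.2 and HOMER 4.9 were used with mm10 and GRCm38 as builds, per the submitters' processing notes. Per the file headers, HOMER called peaks library by library with no control, at a size of 500 bp, with peaks 1000 bp apart or more, an FDR of 0.001, 4-fold enrichment required against the local background and at most 1 tag per base pair. A shift of reads for the transposase's offset is not stated in these sources. The deposited score was 1 throughout and was not used, and the deposited positions are the only values compared. Row order was taken as a rough measure of strength, which the lists do not state. Replicates had Spearman correlations of 0.883 to 0.946 in list position across shared regions, which are not independent. Low in the lists, some neighbouring regions shared a position. In LT-HSC replicate 2, chr1:40391146-40393198 and chr1:40409742-40410516 both stood at 82.9%, and chr4:145249880-145250726 at 84.4%. Peaks there may stand in genomic order. Replicates would share that order too, so the correlations do not show that row order is strength.

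Peaks were merged and assigned with Python 3.11.15, pandas 2.3.3 and numpy 2.4.6, with RefSeq gene spans (GRCm38.p6, the assembly of mm10). Positions are 1-based. A region near several receptor genes went to the nearest span. The counting was tested on simulated lists. The members, gene lists and tests were chosen with earlier results of these data known. Named are the 10 genes with most regions gained plus lost over 4 comparisons. Also named are the 3 gained and 3 lost regions of best mean list position in each comparison, and starts missed in several libraries. Other regions named, such as those at Il2ra, Il3ra, Il18r1 and Ifnar2, were chosen after their values were seen. The LT-HSC and B cell marker lists are not reported here. Samples were grouped by their titles. Groups share replicate numbers, but no model was fitted. Tag totals limit detection: an undetected region may be open below the caller's threshold.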

Additional observations from a re-analysis of the deposited data

How the results depend on the processing

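Counts were repeated with 8 other settings and with each library left out; 60 of 80 counts stayed within 1.5 times the main value under the other settings and 28 of 40 when a library was left out. Those that moved, by comparison, are as follows. LMPP against LT-HSC: gained 33 with each list cut to the upper 50 percent of its rows, 101 with a 100 kb window and 22 at equal list length; lost 1 at 10 kb, 11 at 100 kb and 8 at equal list length. MDP against LMPP: gained 16 at 10 kb and 71 at 100 kb, and lost 65 at 100 kb. CDP against MDP: gained 53 and lost 18 at 100 kb. IRF8KO MDP against WT MDP: gained 6 at 10 kb and 18 at equal list length, and lost 54 at 100 kb and 12 at equal list length. CDP against LT-HSC: gained 72 with the upper 50 percent of rows, 210 at 100 kb and 51 at equal list length, and lost 26 at 100 kb and 19 at equal list length. A wider or narrower window and shorter lists change the number of regions by construction. Leaving out 1 library removes a condition from each call, so those counts can only stay or rise and do not measure how stable the calls are. Leaving out 1 library gave 58 to 106 gained and 3 to 17 lost in LMPP, 37 to 51 gained in MDP, 11 to 15 lost in CDP against MDP, 15 to 21 gained and 33 to 43 lost in IRF8KO MDP, and 9 to 30 lost in CDP against LT-HSC. The share of receptor regions kept its side of the share of all regions in all 12 settings, except for gains in MDP against LMPP (11 of 12), in CDP against MDP (10 of 12) and in IRF8KO MDP (11 of 12). Among all regions centred inside or within 30 kb of a protein-coding gene, 17.2, 12.7, 8.46, 3.77 and 29.6 percent were gained in the 5 comparisons (LMPP against LT-HSC, MDP against LMPP, CDP against MDP, IRF8KO MDP against WT MDP, and CDP against LT-HSC, in that order). No paired analysis was possible because the gained and lost calls come from no test or fit that a block could enter, and the labels do not say that a replicate number marks a shared animal or batch.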
